A study of Homo sapiens with 18 samples.

Results

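The late response to imatinib was measured in GIST-T1, an established KIT-dependent gastrointestinal stromal tumor (GIST) cell line, by comparing 3 libraries of cells treated with imatinib at 500 nM for 24 h with 3 libraries of cells given DMSO, the vehicle. The 6 libraries were taken by their treatment labels from the 18 of the study, and all genes were followed. The other groups, each of 3 libraries, were imatinib for 6 h, the BET bromodomain inhibitor JQ1 for 6 h and for 24 h, and both drugs for 24 h, each drug at 500 nM. The labels give no time for the DMSO group, which served as the control at both times, so time in culture and treatment cannot be told apart in the comparison with DMSO. One cell line was used, and nothing in the labels ties the 3 libraries of a group to separate cultures. The p-values therefore measure only the spread between libraries within groups, and that spread may be technical. For the gene tests it was estimated over all 18 libraries of the study, those with JQ1 included. The imatinib 6 h libraries were used as the early time of the same treatment.

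KIT is a receptor tyrosine kinase that, when mutated, drives most GISTs, and imatinib is an inhibitor of its kinase activity that also inhibits PDGFRA and ABL. Active KIT signals through the RAS-ERK cascade, which induces ETS factors and its own feedback inhibitors, and through PI3K-AKT, which keeps FOXO transcription factors out of the nucleus. GISTs resemble the interstitial cells of Cajal, the pacemaker cells of the gut, and express the lineage factors ETV1, HAND1 and FOXF1.

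After 24 h of imatinib, transcripts of ERK output genes were far lower, by the means 237-fold for DUSP6 and 89.9-fold for SPRY4. All tested genes of DNA replication and mitosis fell, against 72.1% of all genes tested, among them MKI67, 14.7-fold. A small group of genes rose against a general drop in RNA, among them the FOXO targets FBXO32 (11.4-fold) and BMF (5.62-fold), myoglobin (MB, 14-fold) and the surface glycoprotein CD24 (6.78-fold). Each fold is the ratio of the means of 3 libraries a group.

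Polyadenylated RNA was recovered, set to cell count and mixed with ERCC spike-in RNA before library preparation, and the deposited unit is FPKM (fragments per length of transcript, scaled to depth) on the spike-in scale. The sum of FPKM over genes was 1833221, 2328353 and 2463615 in the DMSO libraries and 453262, 518817 and 468644 after 24 h of imatinib, 4.60-fold lower on average, and the groups did not overlap (exact two-sided permutation test p = 0.1, the smallest that 3 against 3 allows). Without the MIR1244 copies, which held 33.8 to 41.4% of the sum in DMSO and 18.5 to 23.2% after 24 h, the sum was 3.57-fold lower. The ERCC sums lay between 6521 and 6948 in all 9 DMSO and imatinib-only libraries. The deposited values were already set to the spike-ins, so ERCC sums of like size are no check on the drop. RNA was set to cell count, so these sums stand for polyadenylated RNA per counted cell, as far as that step held, which was not tested. In bulk RNA, a change in all cells and a larger change in some of them cannot be told apart.

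A gene was called when limma's test on log2(FPKM + 1) gave a Benjamini-Hochberg adjusted p below 0.05 and a log2 change of at least 1, over 12771 genes tested. All adjusted p-values and standard errors (SE) below come from that fit, and fold changes of genes near or below 1 FPKM are understated on this scale. After 24 h, 82 genes (0.642%) rose and 9210 (72.1%) fell against DMSO, and the median gene stood at -1.50 on the log2 scale. All 3 treated libraries lay below all 3 DMSO libraries for 11600 genes (90.8%) and above them for 369 (2.89%). When each library was rescaled so that its median gene ratio was equal, 1124 genes (8.8%) were called higher and 1114 (8.72%) lower, and the median change was 0.01. Of the 82 rises, 80 were also called higher after rescaling, and all 1114 genes called lower after rescaling had also fallen on the deposited scale. Every value below is on the deposited scale unless it is called rescaled; a rescaled change is relative to the median gene. The DMSO libraries differed in level, with the first the lowest and the third the highest in total FPKM.

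**Figure D1:**
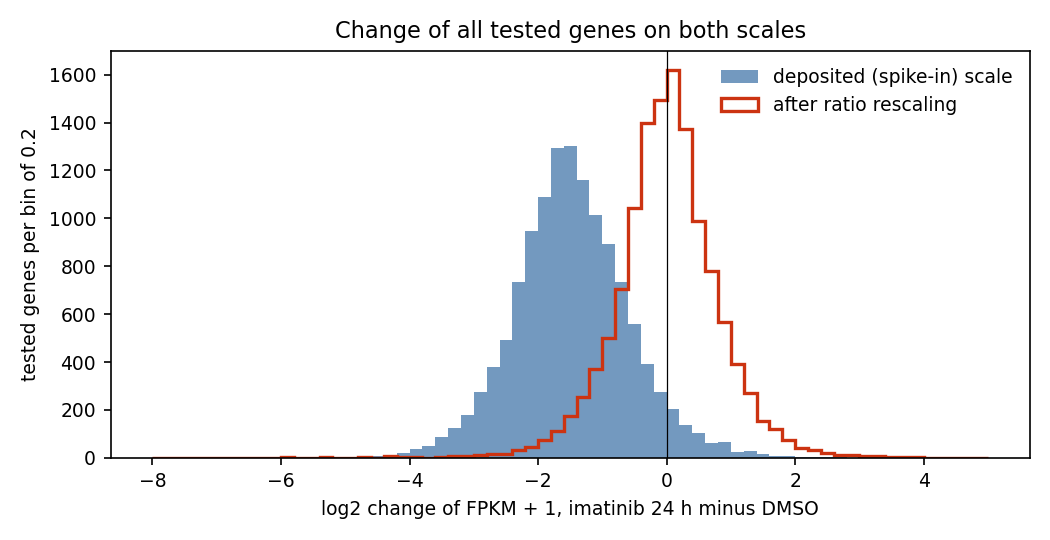
Number of tested genes (y axis, bins of 0.2) by log2 change of FPKM + 1, imatinib 24 h minus DMSO (x axis), on the deposited spike-in scale (filled) and after ratio rescaling (red line). The deposited values centre at -1.50 and the rescaled values at 0.01.

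The libraries expressed the markers of the labelled tumor type. All 13 GIST markers were tested, with a summed level of 8928 to 13760 FPKM in DMSO and 1451 to 1557 FPKM after 24 h. CD34 and PLAT made up most of the sum in DMSO, with means of 4065 and 4739.9 FPKM, and the mean of KIT was 644 FPKM. Of 8 leukocyte markers 2, CD68 among them, passed the filter on low values, and none of 7 endothelial markers did. Their sums were 13.9 to 17.7 and 1.20 to 1.40 FPKM in DMSO, and 4.53 to 5.03 and 0.853 to 0.914 FPKM after 24 h; PTPRC, which marks leukocytes, and TEK, which marks endothelium, were near the lowest values of the table in both groups. The 8 epithelial markers summed to 416.5 to 663.7 FPKM in DMSO and 44.4 to 46.9 after 24 h, nearly all of it KRT18, and the 8 neural and glial markers to 149.3 to 240.5 and 10.2 to 10.9 FPKM, nearly all TUBB3; KRT19, KRT20, SOX10 and GFAP were below 0.2 FPKM in both group means. KRT18 and TUBB3 (both picked out after their values were seen) each fell, by 3.62 and 4.13 on the log2 scale. Among 8 smooth muscle markers 3 were tested and SMTN made up most of the sum, 107.2 to 171.3 FPKM in DMSO and 23.3 to 24.6 after 24 h. The part of these markers in the changes described here was not tested.

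The targeted receptor itself fell. KIT was at 529, 626 and 777 FPKM in the DMSO libraries and at 136, 155 and 142 FPKM after 24 h, with every treated library below every control library. The change was -2.13 ± 0.18 (log2 ± SE, adjusted p = 1.4e-10), and -0.40 with no call after rescaling. KITLG, the gene of the KIT ligand, went from 15.9, 18.5 and 20.5 FPKM to 1.08, 1.44 and 1.27 FPKM, a change of -3.09 ± 0.14 (adjusted p = 1.6e-14) that was also called lower after rescaling (-1.63). PDGFRA, the related receptor that is mutated in some GISTs, was at 37, 43.9 and 55.2 FPKM in DMSO and 37.7, 42.6 and 38.8 FPKM after 24 h, and these values overlapped (-0.17 ± 0.17, adjusted p = 0.345); after rescaling it was called higher, at 1.52. Among 41 tested KIT signaling components 30 fell, a share of the size of that of all genes (72.1%), and none rose. Their median was -1.68, and 0.01 after rescaling. On the rescaled values 2 were called lower, KITLG among them, and 1 higher (PDGFRA), against 8.72% and 8.8% of all genes.

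The 2 largest falls among the named genes were ERK output genes. ETV5, an ETS factor of the PEA3 group induced by ERK, was at 199.9, 243 and 295 FPKM in DMSO and at 0.575, 0.556 and 0.516 FPKM after 24 h, which is 448-fold lower by the means (-7.30 ± 0.18 on the log2 scale, adjusted p = 2.9e-18). DUSP6, the cytoplasmic ERK phosphatase, went from 181, 238 and 306 FPKM to 1.01, 1.0 and 1.05 FPKM (-6.88 ± 0.19, adjusted p = 7.2e-18). ETV4, of the same ETS group as ETV5, went from 61.2, 72.1 and 94.2 FPKM to 0.215, 0.206 and 0.138 FPKM, the latter near the lowest values of the table, so the size of its change (-5.99 ± 0.16, adjusted p = 5.0e-18) depends on the pseudocount. The groups lay far apart for all of these genes. SPRY4, an inhibitor of receptor tyrosine kinase signaling that ERK induces, went from 172, 202 and 261 FPKM to 2.15, 2.51 and 2.4 FPKM (-5.97 ± 0.17, adjusted p = 1.2e-17). A further set of feedback genes, chosen after their values were seen, fell as well: SPRY2 by 4.75, DUSP5, a nuclear ERK phosphatase, by 3.91, and SPRED2, which inhibits RAS signaling, by 3.26 on the log2 scale. RASL11A, a small GTPase related to RAS, was at 209.8, 268 and 325 FPKM in DMSO and 1.95, 2.48 and 2.44 FPKM after 24 h (-6.33 ± 0.19, adjusted p = 3.3e-17). In all, 20 of 23 tested ERK output genes fell, against 72.1% of all genes, and none rose, with a median of -2.0, and 8 of 23 (against 8.72% of all genes) were called lower after rescaling (median -0.60).

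Immediate early genes, which respond to growth factors without new protein synthesis, fell in 14 of 15 tested cases, against 72.1% of all genes, with a median of -1.78 beside -1.50. Rescaled, the median was -0.49, with 4 called lower and 1 higher (8.72% and 8.8% of all genes). EGR1, a zinc finger factor of this class, was at 22.2, 23.4 and 31.6 FPKM in DMSO, 0.529, 0.392 and 0.49 FPKM after 6 h and 0.546, 0.471 and 0.551 FPKM after 24 h, so its low level was present at the early time (-4.12 ± 0.18, adjusted p = 9.5e-15 at 24 h). CTGF and CYR61, secreted matricellular proteins, were lower at 24 h than at 6 h, by 1.08 and 1.26 on the log2 scale, both calls. Against DMSO, CTGF fell by 4.01 and CYR61 by 3.01.

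Genes of the GIST lineage did not all move by the same amount. ETV1, the ETS factor that marks the Cajal cell lineage, was at 82.5, 99.6 and 119.7 FPKM in DMSO and 60.7, 71 and 64.1 FPKM after 24 h, with all treated libraries lower but no call (-0.60 ± 0.18, adjusted p = 0.00274), and it was called higher after rescaling (1.11). HAND1, a basic helix-loop-helix factor, went from 132, 165 and 205 FPKM to 77.7, 79.8 and 77 FPKM (-1.07 ± 0.20, adjusted p = 2.3e-05); without the third DMSO library the change was -0.91, below the size needed for a call, and after rescaling it was 0.66 with no call. FOXF1, a forkhead factor of gut mesenchyme, went from 339.9, 427 and 538 FPKM to 142, 153 and 142 FPKM (-1.55 ± 0.20, adjusted p = 1.5e-07), and stood at 0.19 with no call after rescaling. These 3 transcription factors were lower than in DMSO in every treated library and lay above the median gene after rescaling. ANO1, the calcium-activated chloride channel used to diagnose GIST, was at 285, 327 and 425 FPKM in DMSO and 88.9, 92.7 and 86.3 FPKM after 24 h (-1.92 ± 0.18, adjusted p = 1.5e-09), and -0.19 after rescaling. PLAT, tissue plasminogen activator, fell 16.1-fold, from 3767, 4572 and 5881 FPKM to 295, 306 and 284 FPKM (-3.98 ± 0.20, adjusted p = 7.1e-14), and stayed a call after rescaling (-2.24). TMEM100, a membrane protein, went from 457, 598 and 696 FPKM to 15.7, 17.6 and 16.4 FPKM (-5.04 ± 0.17, adjusted p = 1.8e-16). CD34, a surface glycoprotein of GIST and of blood progenitors, picked out after its values were seen, went from 3253, 3934 and 5009 FPKM to 483, 502 and 467 FPKM, a fall of 3.05 on the log2 scale. Over the 20 tested lineage and enhancer genes, 16 fell, against 72.1% of all genes, and none rose (median -1.97, and -0.29 rescaled). Of the 20, 6 were called lower and 2 (ETV1 and PDGFRA) higher after rescaling, against 8.72% and 8.8% of all genes.

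FOXO factors activate genes of growth arrest, apoptosis and protein breakdown. The list of their targets, like the other lists, was chosen with earlier results of these data known, so its shares are description only. Of 32 tested targets 5 rose, against 0.642% of all genes, 8 fell, against 72.1%, and the median change was 0.16, beside -1.50 for all genes. After rescaling 21 of the 32 were called higher and none lower, against 8.8% and 8.72% of all genes, with a median of 1.56. FBXO32, the muscle ubiquitin ligase atrogin-1, was at 0.712, 0.961 and 1.15 FPKM in DMSO and 10.4, 11.2 and 10.6 FPKM after 24 h, with no overlap (2.60 ± 0.14, adjusted p = 2.8e-13). BMF, a BH3-only protein that promotes apoptosis, went from 4.42, 6.17 and 6.58 FPKM to 30.8, 32.7 and 33 FPKM (2.32 ± 0.18, adjusted p = 5.9e-11). KLHL24, a substrate adaptor of a cullin ubiquitin ligase, went from 11.6, 13.2 and 15.2 FPKM to 61.2, 74.9 and 66.2 FPKM (2.26 ± 0.18, adjusted p = 6.6e-11). All of these had risen by 6 h, and none of the 3 was called between 6 h and 24 h. The other rising members, named here after their values were seen, were YPEL3 (1.27 ± 0.19, adjusted p = 1.6e-06) and TXNIP (1.12 ± 0.19, adjusted p = 9.9e-06). TXNIP, the thioredoxin-interacting protein, which also restrains glucose uptake, was the late member: it was at 76, 93.3 and 113 FPKM in DMSO, 74.7, 71.6 and 79.4 FPKM after 6 h and 194, 215 and 202 FPKM after 24 h, and the rise from 6 h to 24 h was 1.43 ± 0.19 (adjusted p = 1.3e-06). Without the first DMSO library its change against DMSO was 0.98, just under the size needed for a call. HBP1, a repressor of cell cycle genes chosen likewise, had its highest level at 6 h, at 117, 122 and 126 FPKM, and was at 66.3, 77.4 and 71.9 FPKM after 24 h, against 31.5, 41.6 and 49.7 FPKM in DMSO. CDKN1B, the CDK inhibitor p27 and a classic FOXO target, was among the members that fell: it went from 109, 134 and 165 FPKM to 56.2, 67.2 and 64.1 FPKM (-1.09 ± 0.19, adjusted p = 1.4e-05), a fall that was not called without the third DMSO library (-0.94) and that turned to 0.63 after rescaling.

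The TXNIP promoter is shown because TXNIP rose late and its window holds the FOXO motif TGTTTAC, here on the opposite strand, in capitals; the window is the 250 bases before the RefSeq start (GRCh38.p14, minus strand, chr1:145996580-145996829), while the submitters' processing notes name hg19 for the deposited values.
TXNIP: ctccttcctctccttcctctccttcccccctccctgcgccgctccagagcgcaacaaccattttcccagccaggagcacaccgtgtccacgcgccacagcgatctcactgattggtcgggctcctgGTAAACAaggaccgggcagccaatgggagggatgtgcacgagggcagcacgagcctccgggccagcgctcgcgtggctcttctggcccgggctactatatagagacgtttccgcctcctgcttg

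The motif, searched on both strands, was found in the 300-base RefSeq promoters (250 bases before to 50 after the start) of 6 of 28 FOXO targets with an entry (21.4%) and in 3.4% of all 27305 promoters of the table. The list was assembled from known targets, with earlier results of these data known, and a match describes letters only.

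**Figure D2:**
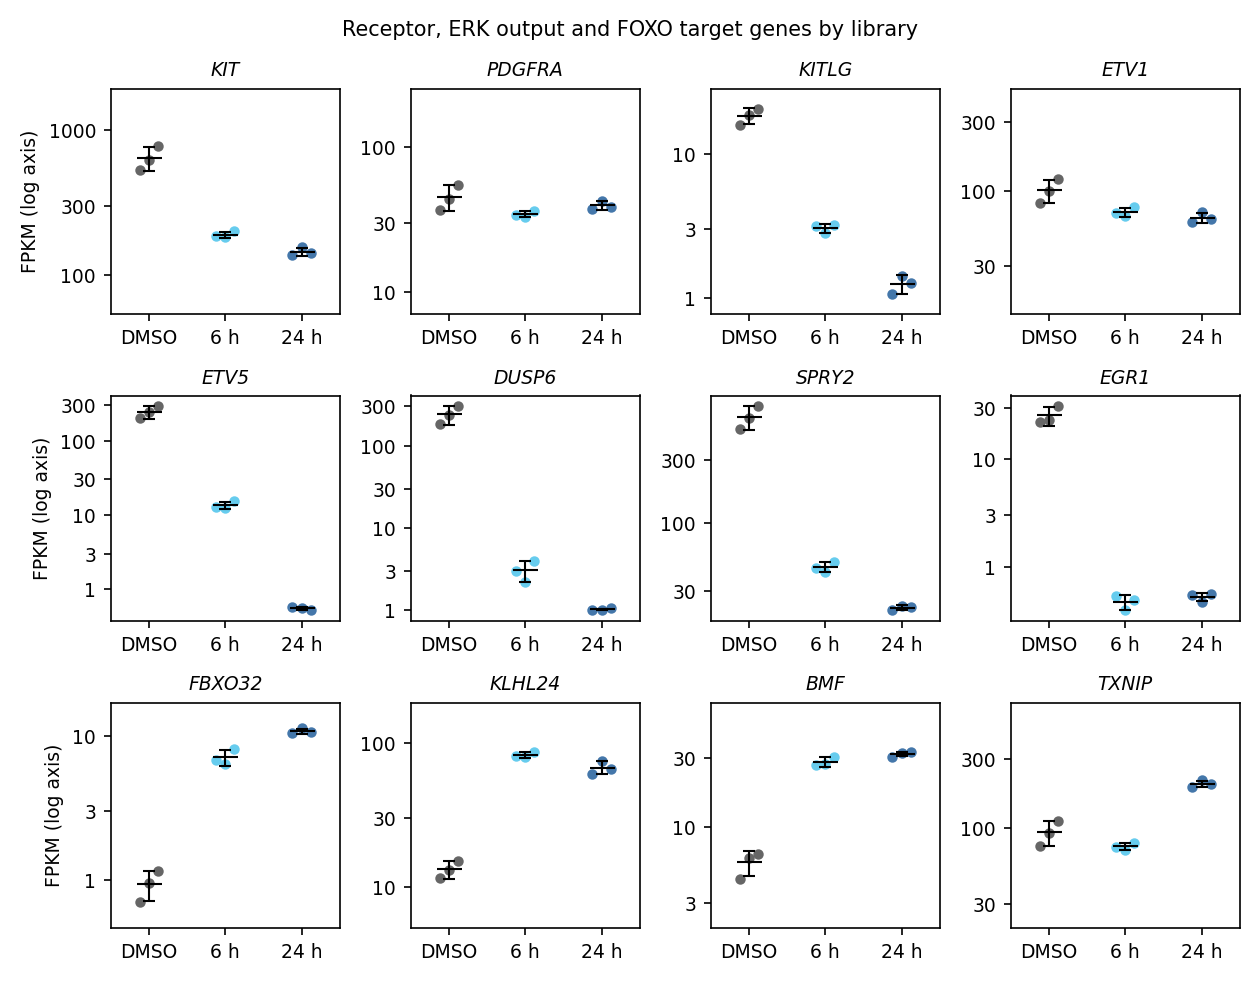
FPKM per library (points, log y axis; mean and SD as bars) of 12 receptor, ERK output and FOXO target genes in DMSO, after 6 h and after 24 h of imatinib (x axis, 3 libraries each). DUSP6 and EGR1 are already low at 6 h, FBXO32, KLHL24 and BMF are already high at 6 h, and TXNIP is high at 24 h only, with libraries of 194 to 215 FPKM.

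Cell cycle genes were lower, and their medians fell more between 6 h and 24 h than between DMSO and 6 h. All 41 tested DNA replication genes and all 36 tested mitosis genes fell against DMSO, against 72.1% of all genes, with medians of -3.10 and -3.0 beside -1.50 for all genes. Rescaled, 33 and 24 of them were called lower (medians -1.41 and -1.31), against 8.72% of all genes. At 6 h only 8 of the 41 and 1 of the 36 had fallen, against 20.0% of all genes (49 genes, 0.384%, had risen at that time). Between 6 h and 24 h, where 4266 genes (33.4%) fell and 64 (0.501%) rose, all 41 and all 36 fell, with medians of -2.31 and -2.56 beside -0.77 for all genes. For 10795 genes (84.5%) all 24 h libraries lay below all 6 h libraries, and for 563 (4.41%) above. After rescaling, 33 and 34 of them were called lower at 24 h than at 6 h, when 4.38% of all genes were called lower and 3.98% higher. The comparisons with DMSO share the control libraries, and the 2 comparisons of imatinib 24 h share its libraries, so they are given side by side.

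RRM2, the small subunit of ribonucleotide reductase, which makes DNA precursors, was at 608, 779 and 926 FPKM in DMSO, 287, 278 and 312 FPKM after 6 h and 20.2, 21.7 and 20.7 FPKM after 24 h. Its change against DMSO was -5.12 ± 0.19 (adjusted p = 9.7e-16), and against 6 h -3.75 ± 0.19 (adjusted p = 3.8e-12). UHRF1, which guides maintenance DNA methylation at the replication fork, was at 124, 150.2 and 199.7 FPKM in DMSO, 80.3, 78.7 and 96.9 FPKM after 6 h and 7.62, 7.03 and 7.29 FPKM after 24 h (-4.23 ± 0.20 against DMSO, adjusted p = 2.5e-14). For both genes the 3 groups of libraries were fully separated, in the order DMSO, 6 h, 24 h. CDC6, the origin licensing factor, fell by 3.87. MYBL2, a transcription factor of the cell cycle, went from 133, 164 and 215 FPKM in DMSO to 6.93, 7.17 and 7.16 FPKM after 24 h (-4.38 ± 0.21, adjusted p = 5.7e-14). AURKB, a kinase of chromosome segregation, went from 127, 166 and 200.2 FPKM to 11.4, 10.1 and 12 FPKM (-3.74 ± 0.20, adjusted p = 2.4e-13), and was at 109, 103 and 117 FPKM after 6 h. MKI67, the proliferation marker Ki-67, went from 108, 115 and 156 FPKM to 8.37, 8.88 and 8.55 FPKM (-3.71 ± 0.18, adjusted p = 4.1e-14). CDC20, an activator of the anaphase-promoting complex, and TYMS, thymidylate synthase, both picked out after their values were seen, fell by 3.71 and 3.54, and neither was called at 6 h.

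Cyclins and their partner kinases drive the cell cycle, and CDK inhibitors restrain it. Of 33 tested genes of this group 31 fell, against 72.1% of all genes, and 1 rose (median -2.45). The rescaled median was -0.77, with 12 called lower and 1 higher (8.72% and 8.8% of all genes). CCND1, cyclin D1, a target of ERK signaling, was at 56.9, 72.8 and 91.9 FPKM in DMSO, 13, 12.1 and 14.8 FPKM after 6 h and 12.4, 12.4 and 12.3 FPKM after 24 h; its change from DMSO was -2.46 ± 0.18 (adjusted p = 1.7e-11), and -0.77 with no call after rescaling. Between 6 h and 24 h it differed by -0.09 ± 0.18 (adjusted p = 0.629). CCNE2, which partners CDK2 at the start of S phase, went from 60.3, 74.8 and 84.2 FPKM in DMSO through 23.9, 24.1 and 25.4 FPKM to 2.58, 3.04 and 3.15 FPKM (-4.23 ± 0.16 against DMSO, adjusted p = 1.4e-15). CCNA2 of S and G2 phase fell by 3.44 and CCND3 by 3.37. CDKN1C, the CDK inhibitor p57, was the member that rose, from 1.24, 1.15 and 1.58 FPKM in DMSO to 4.56, 5.08 and 4.69 FPKM after 24 h (1.32 ± 0.17, adjusted p = 1.3e-07), with 5.03, 4.82 and 5.39 FPKM after 6 h.

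Promoters of 3 of these genes are shown, as they fell together and hold the motifs known for late and early cell cycle genes, in capitals: TTTGAA (CHR) in MKI67 and CDC20, once on the opposite strand in CDC20, and TTTCCCGC (E2F), on the opposite strand, in UHRF1. Each is the 250 bases before the RefSeq start, GRCh38.p14: MKI67 at chr10:128126424-128126673 on the minus strand, CDC20 at chr1:43358731-43358980 and UHRF1 at chr19:4909251-4909500 on the plus strand.
MKI67: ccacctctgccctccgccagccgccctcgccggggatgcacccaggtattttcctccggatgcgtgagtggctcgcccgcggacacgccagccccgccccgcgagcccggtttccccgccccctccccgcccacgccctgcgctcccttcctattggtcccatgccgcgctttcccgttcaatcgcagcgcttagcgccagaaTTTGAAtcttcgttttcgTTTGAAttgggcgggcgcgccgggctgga
CDC20: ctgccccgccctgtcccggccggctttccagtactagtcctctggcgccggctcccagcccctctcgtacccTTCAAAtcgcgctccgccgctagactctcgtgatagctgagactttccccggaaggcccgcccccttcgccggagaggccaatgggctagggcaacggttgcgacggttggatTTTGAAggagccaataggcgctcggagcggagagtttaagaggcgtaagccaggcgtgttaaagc
UHRF1: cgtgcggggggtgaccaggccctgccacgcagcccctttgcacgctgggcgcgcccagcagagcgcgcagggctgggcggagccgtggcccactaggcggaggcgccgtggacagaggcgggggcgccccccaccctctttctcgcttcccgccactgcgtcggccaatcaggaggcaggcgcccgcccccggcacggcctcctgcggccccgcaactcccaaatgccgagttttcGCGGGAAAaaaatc

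In the 300-base windows, searched on both strands, TTTGAA was found in 20 of 29 mitosis genes with an entry (69.0%), in 1 of 35 DNA replication genes (2.9%) and in 15.4% of all promoters. TTTCCCGC was found in 11 of 35 DNA replication genes (31.4%), in 1 of 29 mitosis genes (3.4%) and in 1.7% of all promoters. Neither motif contains the other, and the counts describe sequence, not binding.

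**Figure D3:**
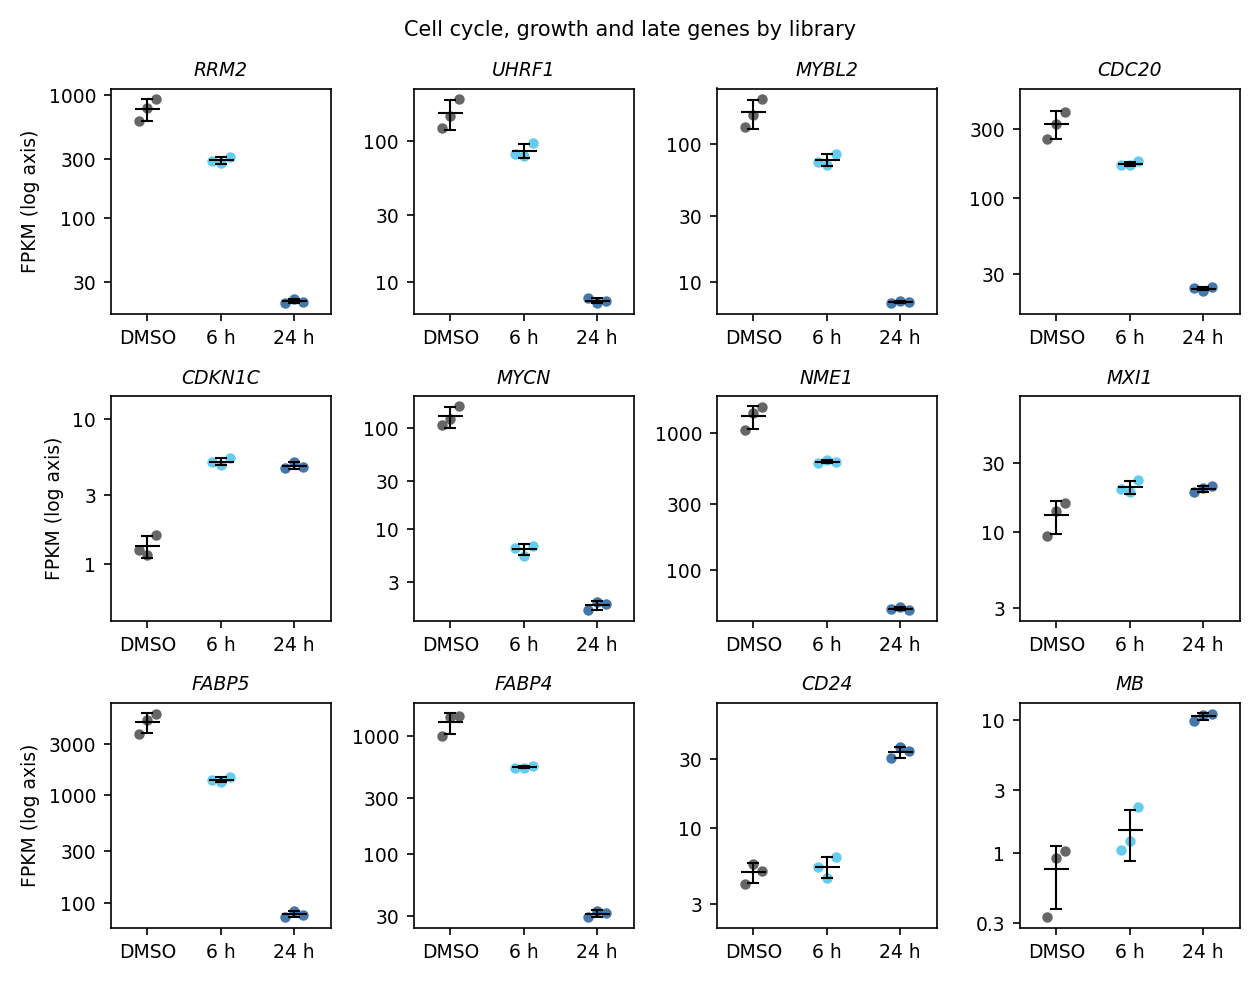
FPKM per library (points, log y axis; mean and SD as bars) of 12 cell cycle, growth and late genes in DMSO, after 6 h and after 24 h of imatinib (x axis, 3 libraries each). RRM2, UHRF1, MYBL2 and CDC20 drop mainly between 6 h and 24 h, MYCN drops mainly by 6 h, and CD24 and MB are high at 24 h only.

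MYC family factors drive growth and ribosome production, and MYCN was the more abundant family member in DMSO. MYCN, per transcript length, was at 107, 123 and 168 FPKM in DMSO, 6.57, 5.41 and 6.89 FPKM after 6 h and 1.56, 1.9 and 1.83 FPKM after 24 h, a fall of 75.1-fold by the means (-5.57 ± 0.16 on the log2 scale, adjusted p = 2.2e-17). MYC was at 3.76, 4.33 and 5.21 FPKM in DMSO and 2.17, 2.02 and 2.07 FPKM after 24 h, lower in every treated library but without a call (-0.81 ± 0.13, adjusted p = 6.4e-06), and at 0.46 after rescaling. With a pseudocount of 0.1 the change of MYC was -1.04, past the size needed for a call. LYAR, a nucleolar protein, went from 67.2, 80.9 and 105 FPKM to 3.7, 4.33 and 3.95 FPKM (-4.08 ± 0.19, adjusted p = 2.9e-14). NME1, a nucleoside diphosphate kinase and known MYC target, was at 1040.3, 1397 and 1532 FPKM in DMSO, 602, 629 and 612 FPKM after 6 h and 51.8, 53.7 and 50.4 FPKM after 24 h (-4.63 ± 0.20 against DMSO, adjusted p = 6.1e-15). Of 42 tested members 37 fell, against 72.1% of all genes (median -2.93), and after rescaling 28 were called lower, against 8.72%, and 3 higher, against 8.8% (median -1.29). The 3 were MXI1, MXD4 and MNT, which pair with MAX and oppose MYC, and they were picked out after their values were seen. MXD1 and MXD3, of the same family as MXD4, were also tested and were not called higher. MXI1 was at 9.45, 14 and 16 FPKM in DMSO and 18.9, 20.1 and 20.8 FPKM after 24 h, with no overlap and no call on the deposited scale (0.60 ± 0.19, adjusted p = 0.00485), and at 2.17 after rescaling. At 6 h 31 of the 42 were called lower than DMSO, against 20.0% of all genes, and 32 were called lower at 24 h than at 6 h, against 33.4%.

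Ribosomal protein genes kept closer to the median gene. Of 54 tested cytosolic ribosomal protein genes 51 fell, against 72.1% of all genes (median -1.34 beside -1.50). Their rescaled median was 0.40, and none was called lower and 1 higher, against 8.72% and 8.8% of all genes (RPL13A, named after its values were seen). RPL35 (-2.02 ± 0.19, adjusted p = 9.4e-10) and RPL8 (-1.78 ± 0.19, adjusted p = 1.2e-08) had the largest falls in the list, and stood at -0.28 and -0.04 after rescaling (0.03 for RPL8 when totals were set equal). Ribosomal protein genes have many near-identical pseudogenes, so their levels are uncertain.

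BCL2 family proteins promote or restrain apoptosis at mitochondria. Of 16 tested members 12 fell, a share near the 72.1% of all genes, and 1 (BMF, above) rose, with a median of -1.58 beside -1.50 for all genes. After rescaling 2 were called lower and 4 higher (8.72% and 8.8% of all genes; median -0.16). BCL2L11, the BH3-only protein BIM, was at 3.55, 4.26 and 5.73 FPKM in DMSO and 4.61, 5.07 and 4.97 FPKM after 24 h, values that overlapped (0.11 ± 0.17, adjusted p = 0.532; -0.02 without the first DMSO library), and it was called higher after rescaling (1.44). BID, the BH3 protein that links death receptors to mitochondria, went from 47, 64 and 78.2 FPKM to 4.54, 4.54 and 4.47 FPKM (-3.51 ± 0.18, adjusted p = 1.5e-13). PMAIP1, the BH3-only protein NOXA, went from 8.87, 10.4 and 12.1 FPKM to 0.245, 0.309 and 0.243 FPKM (-3.17 ± 0.15, adjusted p = 2.6e-14). BNIP3L, a mitophagy receptor of this family chosen after its values were seen, had a change of 0.52 ± 0.19 (adjusted p = 0.0115; no call), and 2.19 after rescaling.

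Of 23 tested p53 targets 12 fell, against 72.1% of all genes, and none rose (median -1.04 beside -1.50). The rescaled median was 0.45, with 3 called lower and 5 higher (8.72% and 8.8% of all genes). AEN, a nuclease of apoptosis, fell by 3.87, and FAS, the death receptor, by 3.06. PLK3, a stress-responsive kinase, fell by 2.74 to values near the lowest of the table (0.146, 0.185 and 0.186 FPKM). Autophagy and lysosome genes had a median of -1.16, with 25 of 45 falling, against 72.1% of all genes, and none rising. Rescaled, 14 were called higher and 1, GLA, lower (median 0.44), against 8.8% and 8.72% of all genes. GLA, the lysosomal alpha-galactosidase, went from 145, 187 and 210.2 FPKM to 25.9, 26.1 and 26.5 FPKM (-2.72 ± 0.18, adjusted p = 7.3e-12). MAP1LC3A, an LC3 protein of the autophagosome named after its values were seen, had a change of 0.75 ± 0.21 (adjusted p = 0.00193) with no call, and 2.42 after rescaling.

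Of 23 tested glycolysis genes 20 fell, against 72.1% of all genes, with a median of -2.50 beside -1.50. After rescaling 8 were called lower and 2 higher (8.72% and 8.8% of all genes; median -0.82). HK2, the hexokinase bound to mitochondria, was at 21.2, 26.5 and 30.5 FPKM in DMSO, 4.13, 2.85 and 2.93 FPKM after 6 h and 0.639, 0.643 and 0.594 FPKM after 24 h (-4.04 ± 0.16 against DMSO, adjusted p = 2.0e-15). ENO1, enolase, went from 1087, 1358 and 1615 FPKM to 102, 103 and 88.1 FPKM (-3.76 ± 0.22, adjusted p = 6.9e-13), and was at 668, 655 and 670.1 FPKM after 6 h. ALDOA, aldolase, fell by 3.10. SLC16A3, a lactate exporter named after its values were seen, was one of the pair called higher after rescaling (1.82; 0.32 ± 0.17 on the deposited scale, adjusted p = 0.0704). All 34 subunits of oxidative phosphorylation fell, against 72.1% of all genes (median -1.95 beside -1.50 for all genes), but after rescaling none was called in either direction (median -0.22). NDUFA9 of complex I (-2.61) and CYC1 of complex III (-2.64) had the largest changes.

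Amino acid response genes of the ATF4 pathway fell in 26 of 29 cases, against 72.1% of all genes (median -2.39), and 11 were called lower after rescaling, against 8.72% (median -0.77, none higher). STC2, a secreted glycoprotein induced by stress, went from 34.2, 44.1 and 51.7 FPKM to 1.22, 1.2 and 1.2 FPKM (-4.31 ± 0.13, adjusted p = 3.4e-17). MTHFD2, a mitochondrial folate enzyme, went from 228, 294 and 344 FPKM to 14.9, 16.8 and 17.3 FPKM (-4.05 ± 0.18, adjusted p = 1.9e-14). SLC7A5, the leucine transporter LAT1, fell by 4.02. Of 29 genes of cholesterol and fatty acid synthesis 24 fell, against 72.1% of all genes (median -1.65 beside -1.50). The rescaled median was 0.08, with 1 called lower and 2 higher (8.72% and 8.8% of all genes). The gene called lower was ELOVL6, a fatty acid elongase (-2.88 ± 0.16, adjusted p = 5.1e-13).

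A pair of fatty acid binding proteins fell. FABP5 was at 3728, 5023 and 5770.4 FPKM in DMSO, 1392, 1336 and 1479.7 FPKM after 6 h and 73.9, 83.7 and 76.5 FPKM after 24 h, 62-fold lower than DMSO by the means (-5.92 ± 0.18 on the log2 scale, adjusted p = 3.5e-17). FABP4 was at 1007, 1432 and 1487 FPKM in DMSO, 538, 537 and 559 FPKM after 6 h and 29.4, 33.5 and 31.9 FPKM after 24 h (-5.31 ± 0.18, adjusted p = 1.8e-16). Their falls from 6 h to 24 h, -4.15 ± 0.18 and -4.07 ± 0.18 (adjusted p = 2.8e-13 for both), led those named in that comparison. MGLL, monoacylglycerol lipase, fell by 3.22. MB, myoglobin, the oxygen carrier of muscle, moved the other way: it was at 0.33, 0.918 and 1.04 FPKM in DMSO, 1.06, 1.24 and 2.22 FPKM after 6 h and 9.91, 10.9 and 11.2 FPKM after 24 h (2.75 ± 0.17 against DMSO, adjusted p = 1.8e-12). The treated libraries lay far above the rest, and MB had the largest change among the named rises. Over the 23 tested genes of fatty acid use and oxygen carriage, 14 fell, against 72.1% of all genes, and MB alone rose (median -1.24). Their rescaled median was 0.34, with 3 called lower and 3 higher (8.72% and 8.8% of all genes).

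Interferon response genes encode antiviral and signaling proteins. Of 34 tested members 30 fell, against 72.1% of all genes, and none rose (median -1.96 beside -1.50 for all genes). The count of falls at 6 h was 23, against 20.0% of all genes. Rescaled, 10 were called lower and 1 higher at 24 h (median -0.40), against 8.72% and 8.8% of all genes. USP18, an inhibitor of the interferon receptor that interferon induces, went from 18.1, 22.7 and 25.5 FPKM to 0.792, 0.672 and 0.896 FPKM (-3.68 ± 0.14, adjusted p = 1.7e-15). XAF1 and OAS3, also induced by interferon, fell by 3.47 and 3.41. CXCL10, a chemokine, was at 56.7, 74 and 85 FPKM in DMSO, 3.49, 3.2 and 2.89 FPKM after 6 h and 0.0704, 0.146 and 0.144 FPKM after 24 h, the last near the lowest values of the table (-6.01 ± 0.13 against DMSO, adjusted p = 5.8e-19). CCL2, a monocyte chemokine, went from 40.2, 53 and 63.1 FPKM to 1.66, 1.13 and 1.45 FPKM (-4.44 ± 0.16, adjusted p = 6.3e-16), and NFKBIZ, a nuclear IkB protein, fell by 3.21. Of 18 tested NF-kB and chemokine genes 14 fell, near the share of all genes (72.1%), with a median of -1.57 that was also close to that of all genes. Their rescaled median was -0.32, with 3 called lower and 1 higher (8.72% and 8.8% of all genes). Antigen presentation genes fell in 17 of 19 cases, against 72.1% of all genes, with a median of -1.56 beside -1.50 for all genes (0.13 after rescaling). The 2 called lower after rescaling, against 8.72% of all genes, were NLRC5, a transactivator of MHC class I genes (-2.44 ± 0.11, adjusted p = 3.1e-14), and TAP2, a peptide transporter subunit (-3.33 ± 0.18, adjusted p = 3.1e-13).

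Other receptor tyrosine kinases and their ligands can signal in parallel to KIT. Of 29 tested members 12 fell, against 72.1% of all genes, and none rose (median -0.88 beside -1.50). Rescaled, 9 were called higher and none lower (median 0.46), against 8.8% and 8.72% of all genes. Of the 50 listed genes, 15 were below 0.2 FPKM in all 9 libraries. FGFR2 went from 273, 317 and 409 FPKM to 70.8, 76.6 and 71.6 FPKM (-2.15 ± 0.18, adjusted p = 2.0e-10), and the ligand FGF2 from 8.9, 10.4 and 12.7 FPKM to 1.27, 1.51 and 1.41 FPKM (-2.27 ± 0.13, adjusted p = 6.2e-13). INSR, the insulin receptor, chosen after its values were seen, was at 1.28, 1.32 and 1.96 FPKM in DMSO and 2.68, 3.03 and 2.71 FPKM after 24 h, higher in every treated library but under the size of a call (0.61 ± 0.13, adjusted p = 9.8e-05).

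Of 36 tested extracellular matrix and integrin genes 20 fell, against 72.1% of all genes, with a median of -1.05 beside -1.50. After rescaling 9 were called higher and 2 lower (8.8% and 8.72% of all genes; median 0.47). The 2 were THBS1, thrombospondin, at 192, 219 and 284 FPKM in DMSO and 23.3, 24.6 and 25.1 FPKM after 24 h (-3.18 ± 0.18, adjusted p = 6.9e-13), and ITGA6, an integrin of laminin binding, which fell by 2.75. COL12A1, a fibril-associated collagen named after its values were seen, had a change of 0.49 ± 0.17 (adjusted p = 0.0088; no call), and 2.17 after rescaling. Contractile genes fell in 16 of 22 cases, near the share of all genes (72.1%), and 1 rose (median -1.60). Their rescaled median was -0.08, with 4 called lower and 2 higher (8.72% and 8.8% of all genes). CALD1, an actin-binding protein of smooth muscle and other cells, went from 879, 1039.5 and 1321 FPKM to 90.0, 111 and 98.5 FPKM (-3.41 ± 0.19, adjusted p = 4.6e-13), and CNN2 and TPM4, also actin-binding, fell by 3.40 and 3.21. MYLK, myosin light chain kinase, rose from 7.92, 8.96 and 10.6 FPKM to 25.1, 30.4 and 26.5 FPKM (1.49 ± 0.17, adjusted p = 1.7e-08), and was also higher at 24 h than at 6 h (1.04 ± 0.17, adjusted p = 8.8e-06).

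Genes of transcription elongation and chromatin had medians close to that of all genes. Of the 22 tested genes on the BET and elongation list 20 fell, against 72.1% of all genes (median -1.62). Their rescaled median was 0.03, with none called lower and 1 higher (8.72% and 8.8% of all genes). POLR2A, the largest subunit of RNA polymerase II, went from 129.9, 143 and 197 FPKM to 31.1, 31.7 and 29.1 FPKM (-2.30 ± 0.20, adjusted p = 2.4e-10), and was at -0.58 with no call after rescaling. SERPINI1, a neuronal serpin named after its values were seen, was on the list but is not itself a BET or elongation factor. It was the only member called after rescaling (2.55), and was 0.97 on the deposited scale, just under the size of a call. Chromatin enzymes fell in 33 of 40 cases, against 72.1% (median -1.67). Their rescaled median was -0.11, with 8 called lower and 5 higher (8.72% and 8.8% of all genes). EZH2, the methyltransferase of Polycomb complex 2, went from 69, 89.2 and 106 FPKM to 6.33, 7.04 and 6.77 FPKM (-3.51 ± 0.19, adjusted p = 2.6e-13), and PRMT1 and KAT2B fell by 3.23 and 3.18.

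**Figure D4:**
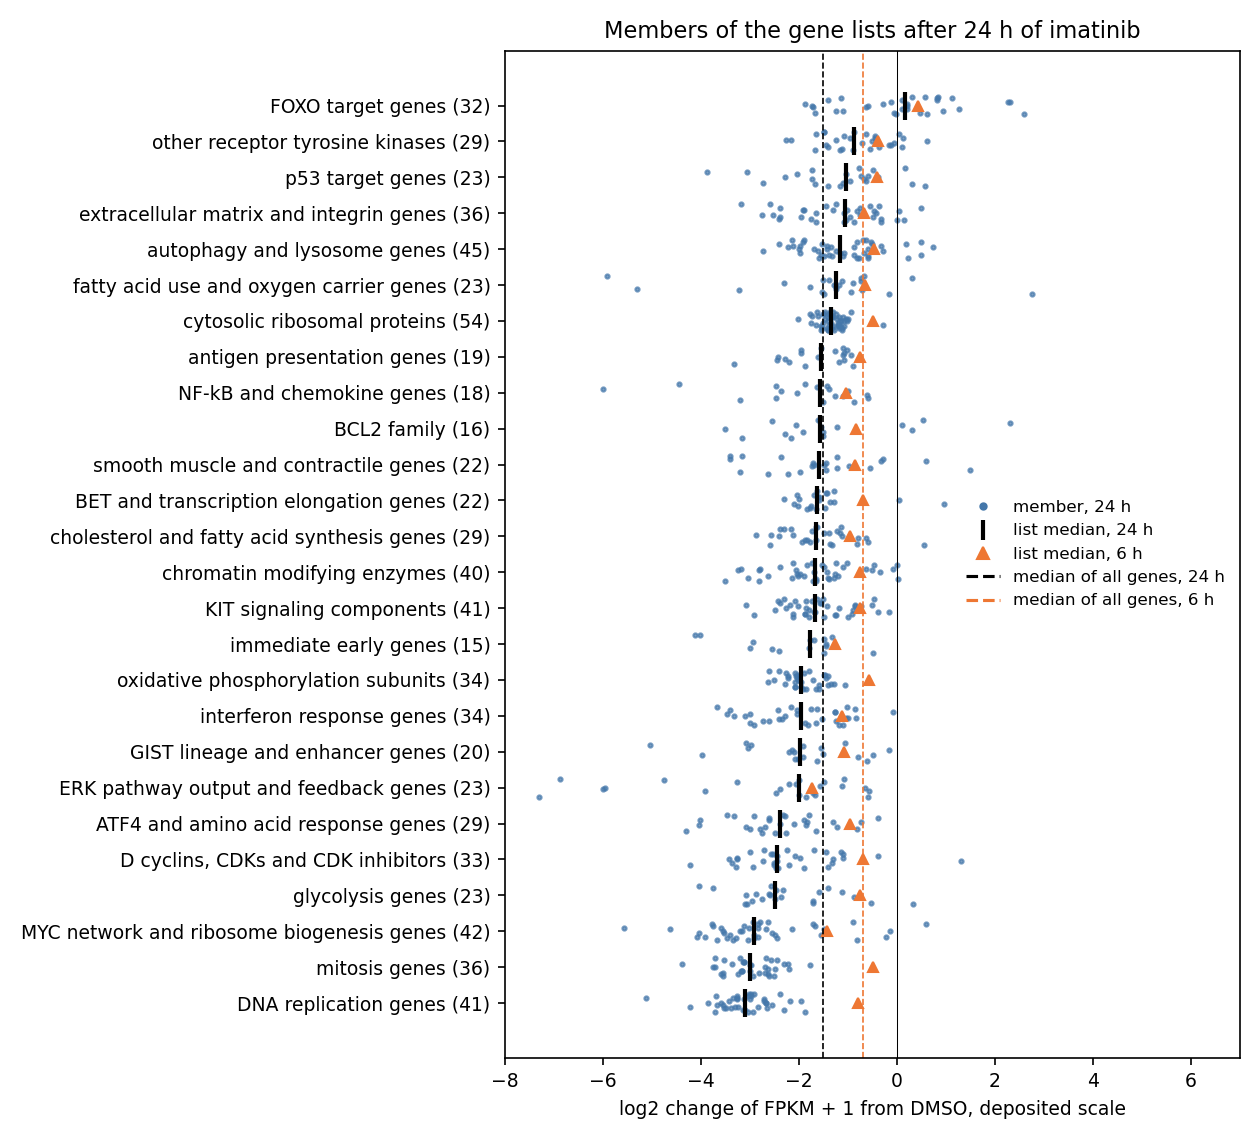
Log2 change of FPKM + 1 from DMSO on the deposited scale (x axis) of the tested members of 26 gene lists (y axis, number of members in brackets): points are members at 24 h, black bars list medians at 24 h, triangles list medians at 6 h, and dashed lines the medians of all genes. FOXO targets lie highest (median 0.16) and DNA replication genes lowest (-3.10); the lowest triangle is that of the ERK output genes (-1.72).

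Further genes were among the 15 largest named falls. PCDH12, a protocadherin, went from 56.4, 66.9 and 86.1 FPKM to 0.301, 0.422 and 0.296 FPKM (-5.70 ± 0.15, adjusted p = 7.2e-18). TNFRSF12A, the receptor of the cytokine TWEAK, went from 57.2, 75 and 99.5 FPKM to 0.949, 1.12 and 1.1 FPKM (-5.22 ± 0.21, adjusted p = 3.1e-15). CHODL, a C-type lectin of the membrane, went from 682, 837 and 959 FPKM to 22.2, 24.7 and 24.6 FPKM (-5.05 ± 0.17, adjusted p = 2.6e-16). CTSL1P8, a cathepsin L pseudogene, fell by 5.54, but its reads may be shared with related copies and its level is uncertain. All of these were called lower after rescaling too.

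The 82 rises were mostly of genes with low levels in DMSO. The treated libraries lay above all DMSO libraries for 74 of the 82, and 16 changed by at least 2 on the log2 scale. The DMSO mean was at least 5 FPKM for 22 of the 82.

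Some named rises were also calls at 6 h. DEPTOR, an inhibitor of mTOR, was at 2.96, 4.12 and 3.83 FPKM in DMSO, 11, 9.61 and 11.9 FPKM after 6 h and 14.8, 15.8 and 16.7 FPKM after 24 h (1.86 ± 0.17 at 24 h, adjusted p = 4.9e-10). KCNK3, a potassium leak channel, went from 2.54, 3.31 and 4.32 FPKM in DMSO to 12.3, 12.5 and 13.9 FPKM and then 17.6, 18.5 and 18.2 FPKM (2.14 ± 0.16, adjusted p = 3.8e-11). SHISA2, which restrains FGF and WNT receptors, went from 3.25, 4.08 and 5.21 FPKM to 17.7, 15.8 and 18.7 FPKM and then 16.1, 19.2 and 19 FPKM (1.90 ± 0.17, adjusted p = 7.2e-10). These genes were raised at both times. KLHL38, TCP11L2 and C5orf4 also rose at both times, and their changes at 24 h were 2.32, 2.37 and 2.17.

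Other named rises were called between 6 h and 24 h. CD24, a surface glycoprotein, was at 4.14, 5.66 and 5.05 FPKM in DMSO, 5.35, 4.53 and 6.3 FPKM after 6 h and 30.4, 36.4 and 34 FPKM after 24 h; it rose by 2.44 ± 0.16 from 6 h (adjusted p = 9.4e-11) and by 2.54 ± 0.16 from DMSO (adjusted p = 3.8e-12). SULF2, which removes sulfate groups from heparan sulfate outside the cell, was at 1.77, 2.25 and 2.68 FPKM in DMSO, 2.04, 1.91 and 2.62 FPKM after 6 h and 12.4, 13.9 and 13.1 FPKM after 24 h (2.15 ± 0.16 from 6 h, adjusted p = 4.3e-10). LY86, a secreted partner of a Toll-like receptor relative, was at 0.701, 0.785 and 0.394 FPKM in DMSO, 0.705, 0.823 and 1.31 FPKM after 6 h and 6.28, 8.26 and 8.79 FPKM after 24 h (2.17 ± 0.16 from 6 h, adjusted p = 3.4e-10). In each case the libraries of DMSO and 6 h overlapped and those of 24 h stood above both. FOLR1, the folate receptor alpha, rose by 1.81 ± 0.17 from 6 h and by 1.79 ± 0.17 from DMSO. COL23A1, a membrane collagen, rose by 1.66 ± 0.16, LOXL4, a lysyl oxidase that crosslinks collagen, by 1.63 ± 0.13, and ABI3BP, a matrix protein, by 1.57 ± 0.15 from 6 h, each with a smaller rise from DMSO (1.09, 1.44 and 1.02). REEP1, a protein that shapes the endoplasmic reticulum, was at 9.99, 13.6 and 16.3 FPKM in DMSO, 19.9, 19.1 and 22.9 FPKM after 6 h and 46.2, 55.7 and 52.2 FPKM after 24 h (1.89 ± 0.18 from DMSO, adjusted p = 2.0e-09). Rising genes that were abundant in DMSO, chosen after their values were seen, included PBXIP1 (44.3, 52.4 and 64.9 FPKM to 153, 151 and 148 FPKM), MVP, the major vault protein (21.6, 27.6 and 34.2 FPKM to 93, 92.5 and 89.9 FPKM), and NDUFA4L2 (25.6, 36.1 and 46.4 FPKM to 101, 106 and 102 FPKM).

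Late falls, from 6 h to 24 h, held an integrin and tubulins beside the cell cycle and FABP genes. ITGA4, the integrin alpha 4 subunit, was at 68.6, 84.4 and 99 FPKM in DMSO, 41.4, 39.5 and 44.2 FPKM after 6 h and 1.9, 2.44 and 2.19 FPKM after 24 h; its fall from 6 h was -3.75 ± 0.16 (adjusted p = 2.8e-13), while the earlier change from DMSO to 6 h, -0.98, was no call. TUBA1B and TUBA1C, alpha-tubulins with near-identical sequences whose reads may be split between them, fell by 3.54 and 3.43 from 6 h. ETV4 and ETV5 also went on falling, by 3.90 and 3.22 from 6 h. DUSP6 (-0.99 ± 0.19) and SPRY4 (-0.83 ± 0.17) were lower too, but under the size needed for a call. DUSP6 was near 1 FPKM at 24 h, where this scale understates a fold change. For KIT the change was -1.75 from DMSO to 6 h and -0.39 ± 0.18 (adjusted p = 0.0471; no call) from 6 h to 24 h.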

How the data were processed

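The labels describe polyadenylated RNA set to cell count, ERCC spike-ins, stranded TruSeq libraries and single-end reads of 75 bases. The authors deposited 1 table of FPKM for 18 libraries; STAR, Cufflinks and hg19 are named in the submitters' processing notes, and the sources used here do not say how values were set to the spike-ins. No counts were used, so the depth behind each value is unknown. The table has 23713 rows, 92 of them ERCC and 28 with names turned into dates; a test needed 1 FPKM or more in 3 or more libraries, which 12771 genes met and 10850 did not.

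limma 3.58.1 (R 4.3.3; trend in the prior variance) was fitted to log2(FPKM + 1) of all 18 libraries with 1 mean per group, 12 residual degrees of freedom and two-sided tests; the script was tested on simulated data. Contrasts were imatinib 24 h minus DMSO and minus imatinib 6 h, with 6 h minus DMSO given alongside. Same-numbered libraries did not deviate together (correlations of -0.219 to 0.086 over genes), so the numbers were not used as pairs. Ratio rescaling divided each library by its median gene ratio to the geometric mean library; the other alternatives were equal totals without MIR1244, a pseudocount of 0.1, no filter, a filter on a mean of 5 FPKM, the compared groups only, the replicate block and leaving out each library.

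Members and lists were chosen with earlier results of these data known. Named genes were 16 chosen by role, the 15 largest rises and falls against DMSO and 8 against 6 h (no overlap, higher group's mean 5 FPKM or more), and up to 3 rising and 3 falling members of each list, falls only where also called after rescaling, else the 2 of largest size. Clone, LOC, small RNA, antisense and date-like names were passed over (15 among the top falls against DMSO, 6 falls and 1 rise against 6 h), and some genes that the rule names are not reported here. Promoters are from RefSeq (GRCh38.p14). The ETS motif CCGGAA was found in 4 of 14 ERK output genes with an entry (28.6%), of 23 tested. It was found in 11 of 35 DNA replication genes (31.4%), 7 of 29 mitosis genes (24.1%) and 3 of 28 FOXO targets (10.7%). Its share of all promoters was 17.6%. With only 14 entries the ERK output share is uncertain.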

Additional observations from a re-analysis of the deposited data

Results flagged for a closer look

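For 7 named genes the change from DMSO had opposite signs after 6 h and after 24 h of imatinib, and limma's test of the difference, 24 h minus 6 h, passed the call rule. SULF2 differed by 2.15 on the log2 scale, FOLR1 by 1.81, COL23A1 by 1.66, LOXL4 by 1.63, ABI3BP by 1.57 and TXNIP by 1.43, all higher at 24 h, while the 6 h change of each from DMSO was between -0.56 and -0.02 and no call. CDKN1B differed by -1.27, with a change of 0.18 at 6 h (no call) and -1.09 at 24 h. The median gene stood at -0.69 at 6 h on this scale, below the 6 h change of all 7 genes. After ratio rescaling CDKN1B was at 0.63 at 24 h. The opposite signs therefore hold for the deposited scale only as far as shown here.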

How the results depend on the processing

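Counts moved most with the scale. Rises and falls against DMSO were 1124 and 1114 with ratio rescaling and 1301 and 1000 with equal totals, and against 6 h they were 508 and 560, and 675 and 468. Members rising in all pathway lists together went from 8 to 80 and 90, and falling ones from 599 to 172 and 162. With a pseudocount of 0.1, 162 genes rose against DMSO and 154 against 6 h, and with a mean of at least 5 FPKM 37 and 30 rose. The ratio of total FPKM moved from 0.217 to 0.280 without MIR1244. Leaving out 1 library at a time gave 70 to 99 rises and 8551 to 9598 falls against DMSO, 59 to 72 and 3788 to 4619 against 6 h, 7 to 10 rising and 559 to 610 falling list members, and a total ratio of 0.20 to 0.231. Direction turned for genes whose deposited change was smaller than the shift of the scale, under ratio rescaling and equal totals in that order: CDKN1B 0.63 and 0.70, ETV1 1.11 and 1.19, FOXF1 0.19 and 0.26, HAND1 0.66 and 0.73, MXD4 1.39 and 1.47, MYC 0.46 and 0.52, PDGFRA 1.52 and 1.59; RPL8 stood at 0.034 with equal totals and BCL2L11 at -0.017 to 0.27 with 1 library left out, the lowest without DMSO replicate 1. List medians minus the median of all genes changed sign for KIT signaling (0.0090, equal totals), the BCL2 family (0.19, mean of at least 5 FPKM), cholesterol synthesis (0.0353, 0.0788, 0.0668 and 0.0788 with pseudocount 0.1, mean of at least 5 FPKM, ratio rescaling and equal totals), antigen presentation (0.0856, 0.32, 0.12 and 0.13 likewise) and BET genes (0.104, 0.0208 and 0.0295 for the last 3); without the filter on low values they were -0.94 for ribosomal proteins, -0.69 for autophagy, -0.56 for p53 targets, -0.32 for fatty acid use and -0.48 for matrix genes. With either rescaling 11 other named gene results lost a call and 9 gained one in their direction. The median change of all tested genes moved from -1.50 to 0.01 with ratio rescaling and to 0.07 with equal totals. What lies behind that difference between the scales was not tested. SERPINI1, no call at 0.97, was a call at 1.01 without DMSO replicate 2, 1.13 without DMSO replicate 3 and 1.02 without imatinib 24 h replicate 1. The replicate block, over 15 libraries because 1 JQ1 column carries a number that no title of its group has, gave 85 rises and 9220 falls against DMSO, and 66 and 4269 against 6 h, and changed no call of a named gene.

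Depth is unknown from FPKM, so values under about 0.2 FPKM carry an unknown counting error. One cell line, controls of unstated time and libraries whose origin in separate cultures is unstated limit every comparison. The SE of ETV5 was 0.18 on the deposited scale and 0.04 after rescaling.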
